A study of Mus musculus with 5 samples.

Results

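The transcripts examined were those of 8 genes grouped as adipogenic transcription factors, *Pparg*, *Cebpa*, *Cebpb*, *Cebpd*, *Cebpg*, *Klf5*, *Klf15* and *Zfp467*. They were taken by gene symbol from a count table of 30046 features, by a rule that refers to no measured value. Bulk RNA-seq was performed on stromal cells of P21 mouse femurs that were sorted as Cxcl12-GFPhigh and tdTomato+, after a single pulse of tamoxifen at E12.5. All mice carried a GFP gene at 1 *Cxcl12* allele and the R26R(tdTomato/+) reporter, which stays on in the descendants of cells in which creER was active after the pulse. The genotype was Cxcl12(GFP/+); Dlx5(CreER/+); R26R(tdTomato/+) in 3 libraries (Dlx5CE-E12.5, descendants of early perichondrial cells) and Cxcl12(GFP/+); Fgfr3-iCreER; R26R(tdTomato/+) in the other 2 (Fgfr3CE-E12.5, descendants of fetal chondrocytes). Each lineage is defined by the activity of its driver after a pulse at a single embryonic day. The study names as a potential limitation that recombination may continue for several days after the injection. It lists the libraries of each lineage as biologically independent samples and gives them as pooled from 4 mice. Whether each library had its own pool is not stated. The comparison asks how stromal cells of perichondrial and of cartilage origin differ in these factors.

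Adipocyte differentiation runs as a cascade. C/EBPb and C/EBPd are induced first and switch on *Pparg* and *Cebpa*, which then maintain each other and bind most of the genes that make, store and release fat. Several Krüppel-like factors act on the *Pparg* promoter in the same window, and ZFP467 favours the adipocyte over the osteoblast fate in marrow stromal cells. In the marrow, the reticular cells that produce CXCL12 also express *Adipoq* and *Lepr* and are regarded as a reservoir of adipocyte precursors.

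Of these factors, *Cebpb* and *Klf5* rose in Fgfr3CE-E12.5 cells, by 7.63 and 2.09 on the log2 scale, and none was called higher in Dlx5CE-E12.5 cells. Levels are in CPM, the counts of a gene scaled to the size of its library. Genes were called where edgeR's quasi-likelihood test gave a Benjamini-Hochberg adjusted p below 0.05 and the log2 fold change, always Fgfr3CE-E12.5 over Dlx5CE-E12.5, lay beyond 1 in size. All 8 factors reached the CPM of 10 in 2 libraries that the test required, but *Cebpb* and *Klf5* reached it only through both Fgfr3CE-E12.5 libraries, where they were high. The count of 2 of 8 called higher in Fgfr3CE-E12.5 cells stands beside 16.4% of the 10088 genes tested, and the count of 0 called higher in Dlx5CE-E12.5 cells beside 13.1%. That 0 also held by DESeq2 and at an unadjusted p under 0.05. In 1 factor, *Pparg*, every Dlx5CE-E12.5 library lay above every Fgfr3CE-E12.5 library, an arrangement found in 34.1% of tested genes, and in 4 factors (*Cebpb*, *Cebpg*, *Klf5* and *Zfp467*) the reverse held, as in 34.8% of tested genes. Over 8 factors these counts say nothing of the set as such, and the results below are those of single genes.

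**Figure D1:**
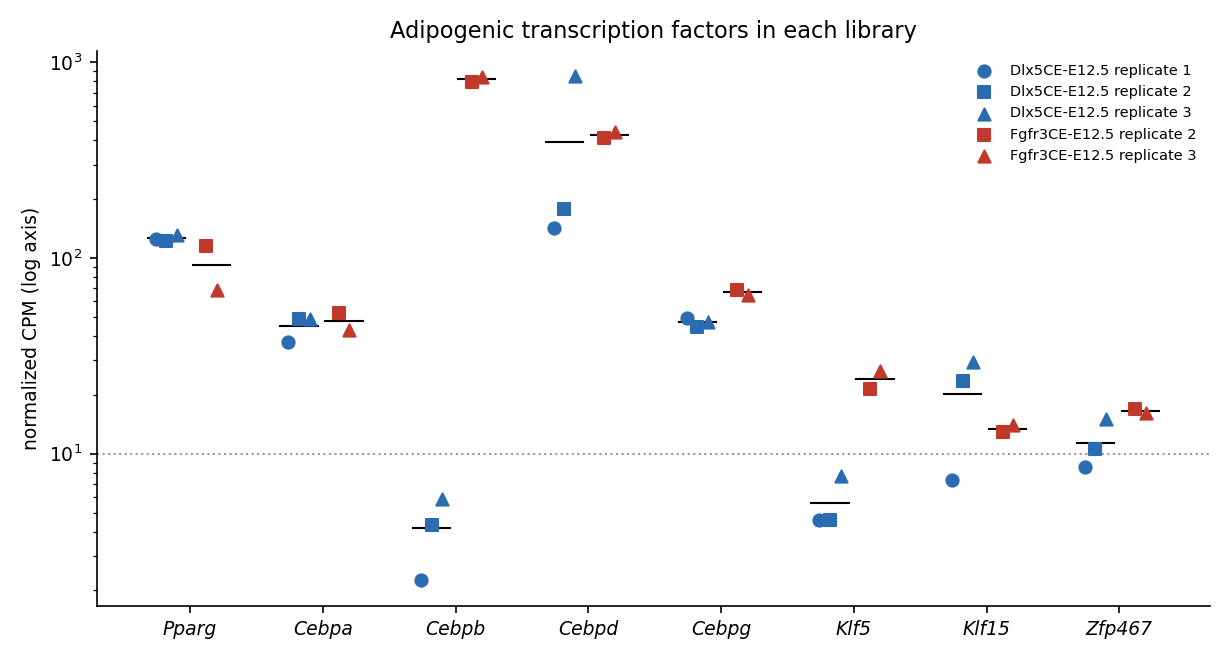
Normalized CPM (vertical, log axis) of the 8 factors in each of the 5 libraries, with Dlx5CE-E12.5 libraries in blue, Fgfr3CE-E12.5 libraries in red, marker shapes for the replicate number, black lines for the group means and a dotted line at 10 CPM. *Cebpb* lies between 2.25 and 5.89 in the blue libraries and at 796 and 845 in the red ones, and 1 blue library stands apart from the rest in *Cebpd* and another in *Klf15*.

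*Cebpb* (ENSMUSG00000056501; GRCm38 chromosome 2, 167688915 to 167690418, plus strand) encodes the early C/EBP that hormonal inducers of adipogenesis act on, and it is also used by myeloid cells and osteoblasts. Its CPM after scaling of the libraries was 2.25, 4.33 and 5.89 in the Dlx5CE-E12.5 libraries and 796 and 845 in the Fgfr3CE-E12.5 libraries. Every Dlx5CE-E12.5 library was low and both Fgfr3CE-E12.5 libraries were high, with no overlap. The raw counts behind these values were 69, 92 and 148 against 48968 and 53574. The means were 4.16 ± 1.82 (SD, n = 3) and 821 ± 34.9 (SD, n = 2), a fitted ratio of 199 and a log2 fold change of 7.63 (SE 0.40, adjusted p = 4.28e-05, edgeR). *Cebpb* ranked 6 among all 10088 tested genes by log2 fold change.

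The *Cebpb* gene has an unusual make-up, and the values that bear on its measurement are given here. It consists of 1 exon of 1504 bases with a GC content of 67.2%, and 26 tested genes had an exonic GC content above 65%. Of these 26, 18 (69.2%) were called higher in Fgfr3CE-E12.5 cells, 2 were called higher in Dlx5CE-E12.5 cells and the median log2 fold change was 2.67, against 0.01 over all tested genes. *Cebpb* had the largest fold change of the 26 and also of the 191 tested genes with 1 exon, whose median was -0.20. According to the study's methods, the Dlx5CE-E12.5 libraries were read as pairs on a NovaSeq and the Fgfr3CE-E12.5 libraries as single reads on a HiSeq. By these methods, sequencing and lineage cannot be told apart in any tested gene. The deposited design text instead names a HiSeq for all libraries. With a smooth trend on GC content removed, the log2 fold change of *Cebpb* was 6.30 (adjusted p = 3.39e-05, edgeR). That trend was fitted over the tested genes, of which only these 26 lay above 65%. How much of their shift it removed was not tested. The library kit does not mark strand, and 312 bases (20.7%) of the *Cebpb* exon are also exon of *Tmem189* on the opposite strand. *Tmem189* had 178, 138 and 193 counts in the Dlx5CE-E12.5 libraries and 4449 and 7605 in the Fgfr3CE-E12.5 libraries and was called in the same direction (log2 fold change 3.85). Reads from the shared stretch cannot be told apart.

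The promoter windows of *Cebpb* and of 2 C/EBP genes that did not differ by 2-fold are shown because the C/EBP genes, which share a bZIP domain, differed in how far they moved. The windows are RefSeq sequences of GRCm38.p6 from 250 bases before to 50 bases after the annotated start, at chr2:167688665-167688964 on the plus strand, chr7:35119043-35119342 on the plus strand and chr7:35056517-35056816 on the minus strand. Capitals mark the GC box GGGCGG, which Sp and KLF proteins bind, and the CCAAT box, each on either strand.
Cebpb: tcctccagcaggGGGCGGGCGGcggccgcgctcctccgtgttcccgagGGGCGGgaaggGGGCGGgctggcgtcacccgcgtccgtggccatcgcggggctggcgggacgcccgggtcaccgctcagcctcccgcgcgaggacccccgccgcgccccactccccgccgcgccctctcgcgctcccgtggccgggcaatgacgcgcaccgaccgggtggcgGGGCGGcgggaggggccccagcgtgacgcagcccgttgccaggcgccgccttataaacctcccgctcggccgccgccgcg
Cebpa: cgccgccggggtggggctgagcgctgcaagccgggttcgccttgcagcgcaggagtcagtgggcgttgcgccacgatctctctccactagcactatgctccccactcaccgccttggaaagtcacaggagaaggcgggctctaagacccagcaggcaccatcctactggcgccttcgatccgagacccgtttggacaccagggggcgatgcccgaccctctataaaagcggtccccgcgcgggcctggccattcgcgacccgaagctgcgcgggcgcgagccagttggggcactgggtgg
Cebpg: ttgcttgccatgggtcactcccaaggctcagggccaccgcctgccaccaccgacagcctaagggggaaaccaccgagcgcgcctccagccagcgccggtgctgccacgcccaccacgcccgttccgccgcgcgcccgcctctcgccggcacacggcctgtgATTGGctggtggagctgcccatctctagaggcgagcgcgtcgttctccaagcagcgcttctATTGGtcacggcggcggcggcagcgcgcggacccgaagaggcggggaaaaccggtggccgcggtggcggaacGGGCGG
The *Cebpb* window held 5 GC boxes, the first pair of them overlapping, and no CCAAT box. The *Cebpa* window held neither motif, and the *Cebpg* window held 1 GC box and 2 CCAAT boxes. A GC box occurs in 35.7% and a CCAAT box in 37.4% of all 32851 mouse windows of this length. With 80.7% G and C the *Cebpb* window was the richest of the 8 windows found for 6 of the factors, whose range began at 40.3%, and the median over all windows was 52.7%. *Cebpd* and *Klf5* had no entry. Letters of a C/EBP palindrome (TTGCGCAA, in 0.183% of all windows), a cAMP response element (TGACGTCA, in 1.79%) or a PPAR response element (AGGTCANAGGTCA, in 0.0396%) were found in none of the 8 windows on either strand. The E-box CACGTG, present in 7.15% of all windows, occurred 3 times in the *Klf15* window and in no other. The letters CACCC, to which KLF proteins bind and which 57.5% of all windows hold, were found in 6 of the 8 windows, among them 4 times in the first *Pparg* window. A match describes letters and not a bound site.

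*Cebpd* (ENSMUSG00000071637; chromosome 16, 15887286 to 15891031, plus strand) encodes the partner of C/EBPb in the early phase. Its normalized CPM was 142, 177 and 852 in the Dlx5CE-E12.5 libraries and 411 and 442 in the Fgfr3CE-E12.5 libraries. Dlx5CE-E12.5 replicate 3 stood above all other libraries and the remaining Dlx5CE-E12.5 libraries below them, so the lineages overlapped. The means of 390 ± 400 (SD, n = 3) and 426 ± 21.4 (SD, n = 2) did not differ beyond this spread (log2 fold change 0.13, SE 0.72, adjusted p = 0.898, edgeR). Replicate 3 was 4.81 times the higher of the other Dlx5CE-E12.5 libraries, and *Cebpd* was the only one of 9201 genes with a mean of at least 10 CPM in Dlx5CE-E12.5 cells to reach that ratio, whose median over these genes was 0.932. Without that library, *Cebpd* was called higher in Fgfr3CE-E12.5 cells, with a log2 fold change of 1.41 (SE 0.20, adjusted p = 0.00244, edgeR), and 3 of the 8 factors were then called. Genes known for a rapid response to stress and handling, looked up after the *Cebpd* values were seen, gave ratios for the same library of 2.91 (*Hspa1b*), 2.66 (*Hspa1a*), 2.01 (*Ier2*), 1.48 (*Jun*), 1.38 (*Junb*), 1.20 (*Fos*) and 1.08 (*Socs3*). Their part in the *Cebpd* value was not tested. Of the *Cebpd* exon bases, 562 (15.0%) are shared with *Spidr* on the opposite strand, which had a log2 fold change of 0.07.

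*Pparg* (ENSMUSG00000000440; chromosome 6, 115360951 to 115490399, plus strand) encodes the nuclear receptor without which fat cells do not form. Its normalized CPM was 125, 122 and 131 in the Dlx5CE-E12.5 libraries and 115 and 68.5 in the Fgfr3CE-E12.5 libraries. The Dlx5CE-E12.5 libraries were within 1.08 times of each other and above both Fgfr3CE-E12.5 libraries, which differed from each other by 1.68 times. The means were 126 ± 4.95 (SD, n = 3) and 91.7 ± 32.8 (SD, n = 2). The log2 fold change of -0.46 (SE 0.22, adjusted p = 0.128, edgeR) did not pass the test. It was -0.80 (adjusted p = 0.00574) without Fgfr3CE-E12.5 replicate 2 and -0.07 (adjusted p = 0.689) without Fgfr3CE-E12.5 replicate 3, so the size of the difference rested on a single library.

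*Cebpa* (ENSMUSG00000034957; chromosome 7, 35119293 to 35121928, plus strand) encodes the C/EBP of late differentiation and of insulin response. The normalized CPM was 37.2, 48.6 and 48.5 in Dlx5CE-E12.5 cells and 52.5 and 42.7 in Fgfr3CE-E12.5 cells. The lineages overlapped. Means of 44.8 ± 6.58 (SD, n = 3) and 47.6 ± 6.96 (SD, n = 2) gave a log2 fold change of 0.09 (SE 0.18, adjusted p = 0.715, edgeR). The exonic GC content of *Cebpa* is 62.6%, and removal of the GC trend reversed its direction, to -0.70 on the log2 scale (adjusted p = 0.0299, edgeR), without reaching 2-fold.

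*Cebpg* (ENSMUSG00000056216; chromosome 7, 35046422 to 35056573, minus strand) encodes a short C/EBP that pairs with the other family members and lies 62.7 kb from *Cebpa*. The libraries of each lineage were tight, with 49.7, 44.5 and 47.2 CPM in Dlx5CE-E12.5 cells and 68.5 and 65.1 CPM in Fgfr3CE-E12.5 cells. There was no overlap. The log2 fold change was 0.50 (SE 0.13, adjusted p = 0.0179, edgeR), so *Cebpg* passed the threshold on p but not that on size and was not called. The adjusted p was 0.0874 without Dlx5CE-E12.5 replicate 2 and 0.0679 without Dlx5CE-E12.5 replicate 3.

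The make-up of the C/EBP transcripts, as measured, differed between the lineages. Levels of different genes are compared per kilobase of exon, which does not correct for GC content. The limits given above for the measurement of *Cebpb* therefore apply to the shares here and to its level, rank and ratios below. *Cebpb* supplied 2.40%, 3.77% and 1.52% of the summed per-kilobase level of the 4 C/EBP genes in the Dlx5CE-E12.5 libraries and 78.9% and 79.4% in the Fgfr3CE-E12.5 libraries. *Cebpd* supplied 60.8%, 61.8% and 88.1% in the former and 16.4% and 16.7% in the latter. The share of *Cebpa* was 22.6%, 24.1% and 7.13% against 2.97% and 2.29%. The *Cebpg* share was 14.2%, 10.3% and 3.26% against 1.82% and 1.64%. A share falls when another gene rises, and the mean CPM of *Cebpa* and *Cebpg* themselves was 47.6 and 66.8 in Fgfr3CE-E12.5 cells against 44.8 and 47.1 in Dlx5CE-E12.5 cells.

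**Figure D2:**
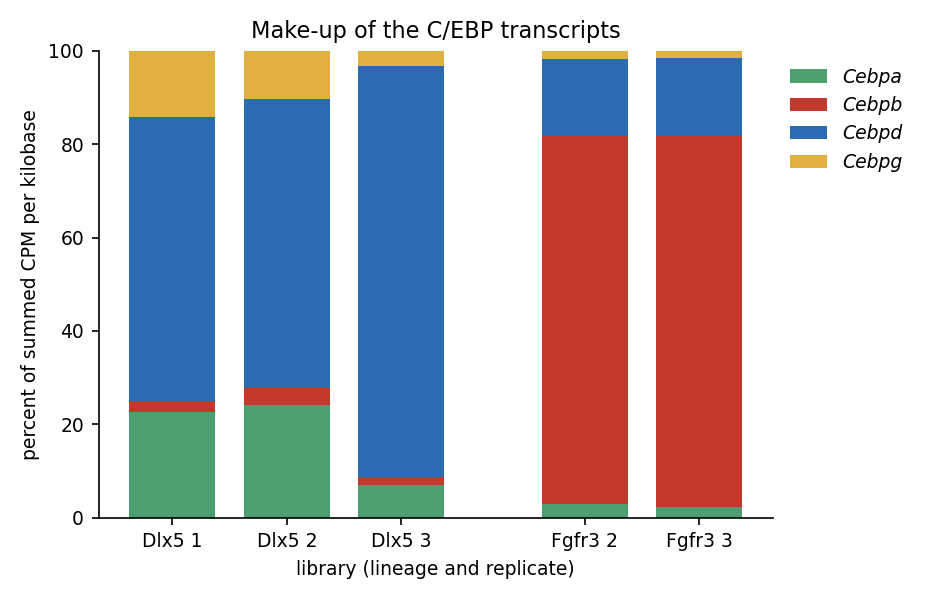
Percent of the summed CPM per kilobase (vertical) that each of the 4 C/EBP genes supplied in each library (horizontal, lineage and replicate number), as stacked bars. *Cebpd* is the largest part in every Dlx5CE-E12.5 library (60.8% to 88.1%) and *Cebpb* in both Fgfr3CE-E12.5 libraries (78.9% and 79.4%).

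*Klf5* (ENSMUSG00000005148; chromosome 14, 99298691 to 99315036, plus strand) encodes the Krüppel-like factor that C/EBPb and C/EBPd induce and that acts with them on *Pparg*. It had 4.57, 4.57 and 7.68 CPM in the Dlx5CE-E12.5 libraries and 21.5 and 26.4 CPM in the Fgfr3CE-E12.5 libraries, from raw counts of 140, 97 and 193 against 1320 and 1676. The lineages did not overlap. The means of 5.60 ± 1.79 (SD, n = 3) and 23.9 ± 3.53 (SD, n = 2) gave a log2 fold change of 2.09 (SE 0.29, adjusted p = 0.00143, edgeR). Its exonic GC content is 47.9%, and with the GC trend removed the log2 fold change was 2.12. The part of the sequencing in this difference was not tested.

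*Klf15* (ENSMUSG00000030087; chromosome 6, 90462576 to 90475238, plus strand) encodes a factor of the later phase that also raises the insulin-sensitive glucose transporter gene *Slc2a4*. It had 7.34, 23.6 and 29.6 CPM in the Dlx5CE-E12.5 libraries and 12.9 and 14.0 CPM in the Fgfr3CE-E12.5 libraries. Dlx5CE-E12.5 replicate 1 was the lowest of all and the other Dlx5CE-E12.5 libraries the highest, at 3.22 times replicate 1 or more. Counting *Klf15* itself, 15 of the same 9201 genes reached that gap. The log2 fold change of -0.58 (SE 0.52, adjusted p = 0.391, edgeR) did not pass the test. Without replicate 1 it was -0.99 (adjusted p = 0.0127, edgeR), just short of 2-fold. *Slc2a4* did not reach the level required for testing, with 9.33, 6.59 and 11.3 CPM against 5.72 and 4.21 CPM.

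*Zfp467* (ENSMUSG00000068551; chromosome 6, 48427697 to 48445825, minus strand) encodes a zinc finger protein. The normalized CPM was 8.55, 10.6 and 15.0 in the Dlx5CE-E12.5 libraries and 17.0 and 16.2 in the Fgfr3CE-E12.5 libraries. Both Fgfr3CE-E12.5 libraries were above the Dlx5CE-E12.5 libraries, the nearest of which was replicate 3. The log2 fold change of 0.54 (SE 0.28, adjusted p = 0.145, edgeR) did not pass the test and was 0.19 with the GC trend removed.

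**Figure D3:**
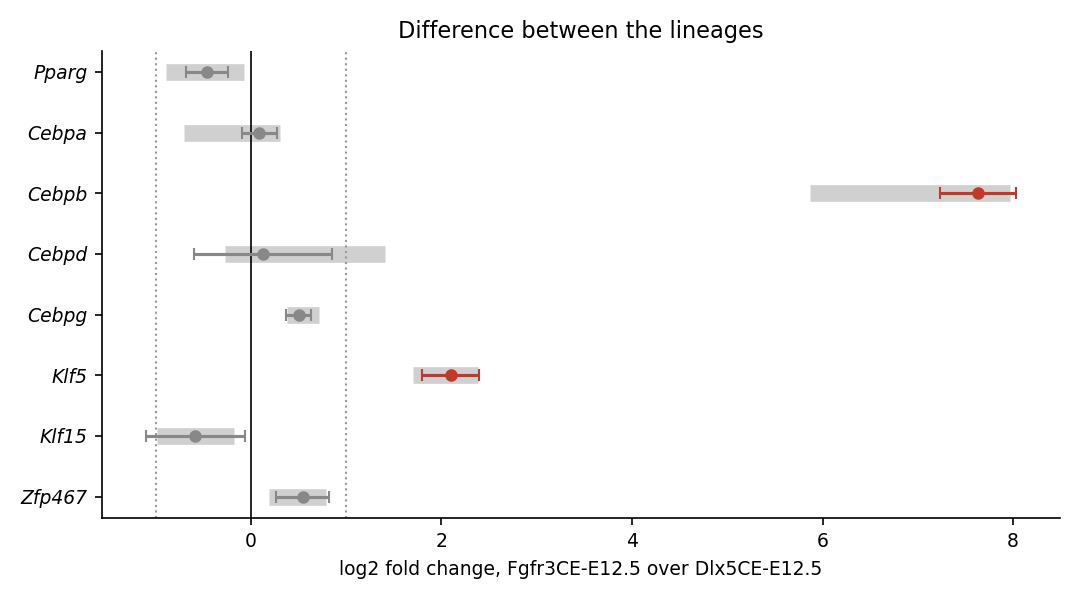
Log2 fold change of each factor, Fgfr3CE-E12.5 over Dlx5CE-E12.5 (horizontal), as a point with its SE, in red where called and grey where not; grey bands span all alternative settings and left-out libraries, and dotted lines mark a 2-fold difference. The bands of *Cebpb* (5.87 to 7.97) and *Klf5* (1.70 to 2.38) stay to the right of the dotted line, that of *Cebpd* (-0.27 to 1.41) crosses it, and the others lie inside the dotted lines.

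Within a library, the factors were ordered by their level per kilobase, given as the mean log2 of CPM per kilobase. In Dlx5CE-E12.5 cells the order was *Cebpd* (6.21 ± 1.41, SD, n = 3), *Pparg* (5.41 ± 0.06), *Cebpa* (4.08 ± 0.22), *Cebpg* (3.07 ± 0.08), *Klf15* (2.63 ± 1.08), *Zfp467* (1.38 ± 0.41), *Cebpb* (1.36 ± 0.71) and *Klf5* (0.06 ± 0.43). Among neighbours in that order, the ranges of the libraries overlapped between *Cebpd* and *Pparg*, *Cebpg* and *Klf15*, *Klf15* and *Zfp467*, and *Zfp467* and *Cebpb*. In Fgfr3CE-E12.5 cells the order was *Cebpb* (9.09 ± 0.06, SD, n = 2), *Cebpd* (6.83 ± 0.07), *Pparg* (4.91 ± 0.53), *Cebpa* (4.17 ± 0.21), *Cebpg* (3.57 ± 0.05), *Klf15* (2.27 ± 0.08), *Klf5* (2.20 ± 0.21) and *Zfp467* (1.96 ± 0.05), with overlap between *Klf15* and *Klf5* alone. *Cebpb* moved from rank 7 to rank 1, whereas *Pparg*, *Cebpa* and *Cebpg* kept their order among themselves in both lineages.

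Ratios of 8 pairs of factors were formed within each library, so that no scaling between libraries entered. The log2 ratio of *Cebpa* to *Cebpb* per kilobase was 3.24, 2.68 and 2.23 in the Dlx5CE-E12.5 libraries and -4.73 and -5.12 in the Fgfr3CE-E12.5 libraries. For *Klf5* to *Pparg* it was -5.59, -5.55 and -4.91 against -3.24 and -2.19. The ratio of *Pparg* to *Cebpa*, the pair that sustains the adipocyte state, was 1.59, 1.16 and 1.27 against 0.96 and 0.52, a difference of -0.60. These pairs, and those of *Cebpb* to *Cebpg*, *Cebpd* to *Cebpb* and *Zfp467* to *Pparg*, did not overlap between the lineages and each gave p = 0.1 (two-sided exact permutation test, adjusted 0.133 over 8 pairs). That is the smallest p that 10 arrangements of 3 and 2 libraries allow, so this test cannot reach 0.05. The ratios of *Cebpa* to *Cebpg* (exact p = 0.3) and *Klf15* to *Pparg* (exact p = 0.9) overlapped.

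The genes most like *Pparg* over the 5 libraries, by the root mean square difference of centred log2 CPM, were *Lgr4* (0.061), *Reep3* (0.061) and *Rnf125* (0.062), and 598 of 10088 genes lay within 0.2 of it. For *Cebpa* they were *Slc41a1* (0.020), *Fubp3* (0.021) and *Taf1b* (0.034), and 1098 genes lay within 0.2. With 5 libraries such likeness is common and describes the libraries only.

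The wider C/EBP and KLF families were counted beside the 16.4% of all tested genes called higher in Fgfr3CE-E12.5 cells and the 13.1% called higher in Dlx5CE-E12.5 cells, and with so few genes nothing is read from the counts. In these and the lists below, some genes entered the test only through the lineage in which they were high. Of 7 C/EBP family genes tested, 2 were called higher in Fgfr3CE-E12.5 cells, 1 was called higher in Dlx5CE-E12.5 cells and 4 were not called (median log2 fold change 0.13, against 0.01 over all tested genes). Beside *Cebpb*, *Cebpe*, the C/EBP of granulocyte maturation, rose by 2.57 (SE 0.44, adjusted p = 0.00335, edgeR), from 5.61, 6.36 and 9.58 CPM to 22.4 and 62.7 CPM. Like *Cebpb*, it entered the test only through the Fgfr3CE-E12.5 libraries. *Ddit3*, which encodes CHOP, a C/EBP that blocks the binding of its partners, was lower in Fgfr3CE-E12.5 cells, with a log2 fold change of -1.23 (SE 0.26, adjusted p = 0.0076, edgeR). Of 13 KLF genes tested, 3 were called higher in Fgfr3CE-E12.5 cells, 1 was called higher in Dlx5CE-E12.5 cells and 9 were not called (median -0.22). *Klf2*, which restrains *Pparg*, had a log2 fold change of 2.19, *Klf3*, a repressor that restrains *Cebpa*, one of 1.12 and *Klf13* one of -1.25.

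Partners of PPARg and other factors around the cascade were counted by list, beside the same 16.4% and 13.1% of all tested genes, and are given as a description. Of 16 tested partners and coregulators of PPARg, 5 were called higher in Dlx5CE-E12.5 cells, 1 was called higher in Fgfr3CE-E12.5 cells and 10 were not called (median 0.04). *Prdm16*, a coregulator of brown fat, and *Crebbp*, a histone acetyltransferase, had log2 fold changes of -2.38 and -2.08, and *Rxrb*, a dimer partner of PPARg, one of 1.70. *Prdm16* (2.39 and 1.66 CPM) and *Ppard* (4.24 and 2.82 CPM), which was also called higher in Dlx5CE-E12.5 cells, were low in both Fgfr3CE-E12.5 libraries. These genes entered the test only through Dlx5CE-E12.5 libraries. Of 17 other factors that favour adipogenesis, 3 were called higher in Dlx5CE-E12.5 cells and 14 were not called (median -0.54). *Nfia*, which opens chromatin for PPARg, and *Ebf3*, an early B-cell factor of marrow stroma, led them with log2 fold changes of -1.85 and -1.82. Of 19 tested factors that restrain adipogenesis, 6 were called higher in Fgfr3CE-E12.5 cells, 2 were called higher in Dlx5CE-E12.5 cells and 11 were not called (median 0.33). *Twist1*, a bHLH factor of mesenchyme, and *Gata2*, a GATA factor that holds preadipocytes undifferentiated, rose by 3.21 and 2.98 in Fgfr3CE-E12.5 cells. Both were below 10 CPM in every Dlx5CE-E12.5 library and entered the test only through the Fgfr3CE-E12.5 libraries. *Tcf7l2*, a factor of Wnt signalling, and *Ddit3* changed by -1.43 and -1.23.

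Single adipocyte genes that PPARg or C/EBPa are known to bind were called in each direction. Of 34 genes listed, 23 were tested, of which 7 were called higher in Fgfr3CE-E12.5 cells, 4 were called higher in Dlx5CE-E12.5 cells and 12 were not called (median 0.51), against 16.4% and 13.1% of all tested genes. *Agpat2*, an enzyme of triglyceride synthesis, and *Pdk4*, a kinase that shuts off glucose oxidation, rose by 2.43 (SE 0.30, adjusted p = 0.00085) and 2.31 (SE 0.29, adjusted p = 0.000951) in Fgfr3CE-E12.5 cells. *Angptl4*, an inhibitor of lipoprotein lipase, fell by 1.79 (SE 0.31, adjusted p = 0.00352, edgeR) and *Adipoq*, which encodes adiponectin, by 1.76 (SE 0.31). The summed level of the list was 9839 to 12060 CPM in Dlx5CE-E12.5 cells and 5989 and 2945 CPM in Fgfr3CE-E12.5 cells, but most of this sum in Dlx5CE-E12.5 cells was *Lpl*, which encodes lipoprotein lipase. *Lpl* had 8922, 6404 and 6068 CPM in the Dlx5CE-E12.5 libraries and 3828 and 1380 CPM in the Fgfr3CE-E12.5 libraries and was called higher in Dlx5CE-E12.5 cells. Lipid droplet genes of the list differed in level. *Plin1* was at 0.163 CPM in 1 Dlx5CE-E12.5 library and at 0 in the other 2, against 4.94 and 2.11 CPM. *Cidec* was at 0 in all 3, against 1.07 and 0.363 CPM, and *Plin5* and *Cidea* were below 1 CPM in every library. *Plin4* had 1.24, 0.989 and 1.15 CPM against 1.02 and 0.600 CPM. *Plin2* had 127, 89.2 and 97.2 CPM against 115 and 116 CPM and was not called.

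**Figure D4:**
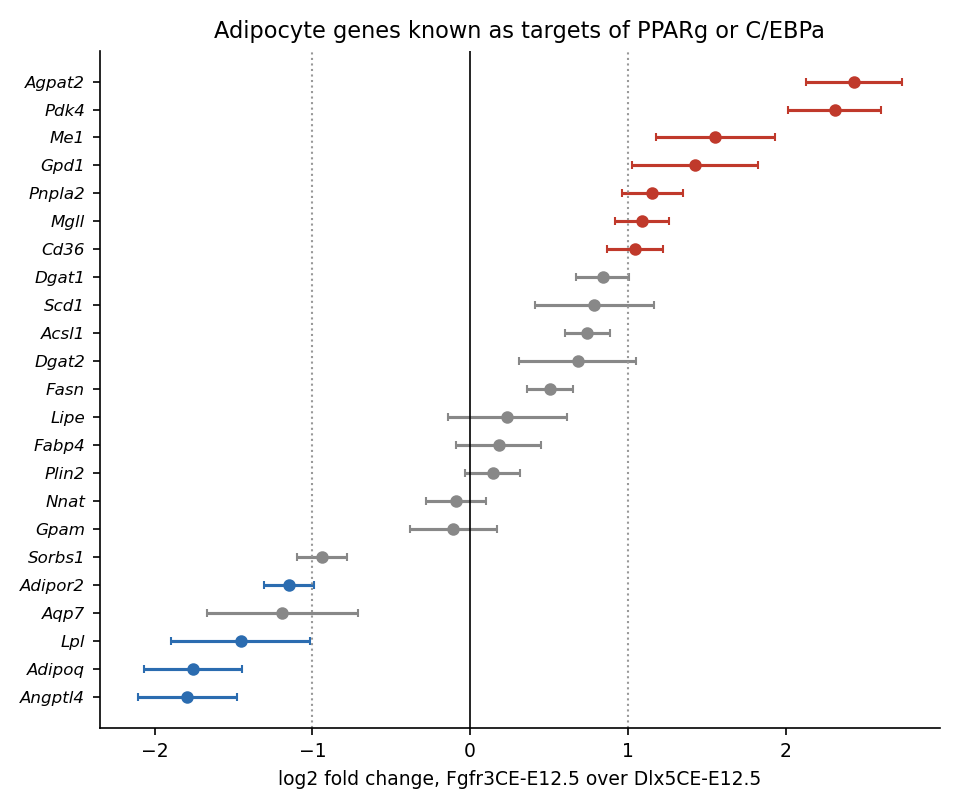
Log2 fold change with SE (horizontal, Fgfr3CE-E12.5 over Dlx5CE-E12.5) of the 23 tested adipocyte genes that PPARg or C/EBPa are known to bind, in order of the fold change, in red where called higher in Fgfr3CE-E12.5 cells, blue where called higher in Dlx5CE-E12.5 cells and grey where not called. There are 7 red and 4 blue genes, with *Agpat2* at 2.43 and *Angptl4* at -1.79 as the extremes.

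Libraries held 22035650 to 32563758 counts in Dlx5CE-E12.5 cells and 56355203 to 58166285 in Fgfr3CE-E12.5 cells. The cre sequence had 416 to 467 counts in the Dlx5CE-E12.5 libraries and 1 count in each Fgfr3CE-E12.5 library. The iCre.ERT2 sequence had counts in both lineages, 451 to 521 in the Dlx5CE-E12.5 libraries against 4802 and 3762. For eyfp the counts were 2999 to 3428 against 0 and 6, and for tdTomato 3574 to 3904 against 3385 and 4409. These are raw counts, and the Fgfr3CE-E12.5 libraries were deeper. After scaling, tdTomato had 117, 174 and 155 CPM against 55.0 and 69.6 CPM. It was called higher in Dlx5CE-E12.5 cells (log2 fold change -1.26). The egfp sequence had 10683, 11055 and 12340 CPM against 7454 and 5647 CPM, a log2 fold change of -0.79, and was not called. The counts of called markers stand beside the 16.4% of all tested genes called higher in Fgfr3CE-E12.5 cells and the 13.1% called higher in Dlx5CE-E12.5 cells. Of 16 markers of CXCL12-abundant reticular stroma, 11 were called higher in Dlx5CE-E12.5 cells and 1, *Foxc1*, was called higher in Fgfr3CE-E12.5 cells (median -1.74). Their summed level was 49730 to 53350 CPM against 21330 and 14350 CPM. *Cxcl12* had a log2 fold change of -1.67, *Kitl* of -2.80 and *Lepr* of -0.94, the last below 2-fold. Of myeloid and general leukocyte markers, 16 of 17 tested neutrophil genes, 9 of 13 monocyte and macrophage genes and 11 of 12 pan-leukocyte genes were called higher in Fgfr3CE-E12.5 cells, and 1 monocyte and macrophage gene, *Vcan*, was called higher in Dlx5CE-E12.5 cells. The neutrophil list summed to 2682 to 3334 CPM in Dlx5CE-E12.5 cells and to 9874 and 20710 CPM in Fgfr3CE-E12.5 replicates 2 and 3, and the monocyte and macrophage list to 516 to 692 CPM against 1690 and 3825 CPM. Of 18 neutrophil genes counted, 17 were higher in Fgfr3CE-E12.5 replicate 3 than in replicate 2, and the exception, *Mmp9*, had 2488 CPM in replicate 2 and 2459 CPM in replicate 3. *Cebpb* differed by 1.06 times between these libraries, and *Cebpe* was 22.4 and 62.7 CPM in them. The part of blood cells in the values of *Cebpb*, *Cebpe* and *Klf5* was not tested. In bulk libraries, fewer cells of a type and less RNA per cell cannot be told apart.

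The remaining marker lists were counted in the same way, beside the same 16.4% and 13.1% of all tested genes, and are given as a description. Osteoblast genes were called higher in Fgfr3CE-E12.5 cells in 5 of 10 and in Dlx5CE-E12.5 cells in 1 (median 1.01). Chondrocyte genes were called higher in Fgfr3CE-E12.5 cells in 2 of 3 tested out of 12 listed. Both called genes, *Col2a1* and *Col9a2*, were below 10 CPM in every Dlx5CE-E12.5 library and entered the test only through the Fgfr3CE-E12.5 libraries. The chondrocyte list summed to 133 to 139 CPM in Dlx5CE-E12.5 cells and to 3427 and 451 CPM in Fgfr3CE-E12.5 replicates 2 and 3, so 1 library stood apart. Mature adipocyte genes gave 1 in each direction among 5 tested, *Adipoq* and *Car3*. The B lineage list had 4 called higher in Fgfr3CE-E12.5 cells and 1 in Dlx5CE-E12.5 cells among 9, that of T and NK cells 1 of 1 higher in Fgfr3CE-E12.5 cells and that of erythroid cells 2 of 13 higher in Dlx5CE-E12.5 cells. The single endothelial gene tested was not called, and no megakaryocyte gene reached the level required for testing. The erythroid list summed to 18300 to 37090 CPM in Dlx5CE-E12.5 cells and to 14630 and 21770 CPM in Fgfr3CE-E12.5 cells, and the B lineage list to 970 to 1249 CPM and to 1031 and 1271 CPM. No marker found in the count table was at 0 in every library, and *Lep* and *Ahsp* were not matched in it.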

How the data were processed

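RNA was measured in 3 libraries of Dlx5CE-E12.5 cells and 2 of Fgfr3CE-E12.5 cells, prepared with SMART-Seq v4 and Nextera XT kits, which do not mark strand. The submitters' processing notes name mm10, TopHat2 2.0.13, Bowtie2 2.2.1 and HTSeq; the counting program's settings are not given in the sources used here. The authors deposited raw counts per Ensembl gene, and rlog values on a log2 scale, which served an alternative. A depth-normalized table was not used here.

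Counts were fitted in edgeR 4.0.16 (R 4.3.3) with TMM scaling and the two-sided quasi-likelihood test over protein-coding genes (GENCODE M21, GRCm38) and 5 reporter sequences with at least 10 CPM in at least 2 libraries. P-values were adjusted by Benjamini-Hochberg over 10088 genes. SE was derived from the F statistic. Ratios were tested by exact permutation. Named were the factors, the 2 called genes of largest change in each direction per list, the stromal genes of the study, and the 3 genes nearest to *Pparg* and *Cebpa*; other genes were named after their values were seen. The factors and lists were chosen with earlier results of these data known. The study's methods call the libraries biological replicates, but the labels do not name their animals, so p-values measure the spread between these libraries. Dixon's outlier test was not applied to groups of 3 and 2 libraries. Reads carry no molecular identifiers, so counts are not independent molecules. The fit was tested on simulated data. Alternatives were other scalings, tests (DESeq2 1.42.0, limma 3.58.1), filters, thresholds, removal of GC or length trends, a replicate block and each library left out.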

Additional observations from a re-analysis of the deposited data

How the results depend on the processing

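*Cebpb* and *Klf5* were called higher in Fgfr3CE-E12.5 cells under all 19 alternatives in which they were tested, with log2 fold changes of 5.87 to 7.97 and 1.70 to 2.38, and *Pparg*, *Klf15* and *Zfp467* kept their direction and were not called under any of 21. The count of factors called higher in Fgfr3CE-E12.5 cells was 3 without Dlx5CE-E12.5 replicate 3 and 0 without either Fgfr3CE-E12.5 library, since *Cebpb* and *Klf5* then reached 10 CPM in 1 library only and were not tested. A filter of 10 CPM in 1 library, added after seeing the data, gave 2, and these fits assume that the lone Fgfr3CE-E12.5 library varies like the others. The *Cebpa* log2 fold change turned to -0.04 with the replicate block, -0.70 with the GC trend removed and -0.22 with the length trend removed, and ran from -0.03 to 0.29 with libraries left out, and was -0.08 without Fgfr3CE-E12.5 replicate 2 under the added filter. That of *Cebpd* turned to -0.19 with the length trend removed and ran from -0.27 to 1.41 with libraries left out, the negative values without Dlx5CE-E12.5 replicate 1 or 2. *Cebpg*, at 0.50, was called with no fold threshold. The replicate block takes Dlx5CE-E12.5 replicate 1 out of the contrast, as set out below. The cause of the other changes was not tested.

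Over all genes, 2363 were called higher in Dlx5CE-E12.5 cells and 2517 in Fgfr3CE-E12.5 cells with no fold threshold, and 659 and 1011 by a test against 2-fold; limma on rlog values called 711 higher in Dlx5CE-E12.5 cells, and leaving out libraries gave 1029 to 1465 and 997 to 1680, both lowest without Fgfr3CE-E12.5 replicate 3, when 9356 genes were tested. Under the added filter of 1 library the counts were 1659 and 1864 without Fgfr3CE-E12.5 replicate 2, and 1140 and 1471 without replicate 3. Scaling by library size alone moved the median log2 fold change of all genes from 0.01 to 0.22 and the share of calls higher in Fgfr3CE-E12.5 cells from 55.6% to 66.3%, and removal of the GC trend moved that share to 50.2%.

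No label says that a replicate number marks a shared litter, batch or day. Same-numbered libraries correlated at 0.12 and -0.05 in their deviations from the group means. With 2 Fgfr3CE-E12.5 libraries, their deviations are mirror images of each other, so these values cannot decide whether same-numbered libraries share an origin. With the replicate block, 1382 and 1678 genes were called, and *Cebpb* and *Klf5* had log2 fold changes of 7.34 and 2.00. No Fgfr3CE-E12.5 library has the replicate number 1, so Dlx5CE-E12.5 replicate 1 did not enter the contrast of this fit. Without that library and without the block, the log2 fold changes were 7.32 and 1.96, so these alternatives are not separate. The lowest counts behind a factor, 69 for *Cebpb* and 97 for *Klf5*, were above the floor of 3 counts, which covers counting error only.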
